A study of Mus musculus with 4 samples.

Results

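The interior of the Pax3 domain is the set of contacts that stay within 78.06 to 79.14 Mb of mouse chromosome 1 (build mm9), a stretch of 1.08 Mb that begins where the DelB deletion ends and that every allele of the study keeps whole and in order. Its members were all pairs of 10 kb bins with both bins in this stretch and at least 20 kb between their starts, which made 5671 of the 500500 pairs of bins in the maps. The rule uses position and distance alone, and the positions were set with earlier results of these maps known. The assay was capture Hi-C, in which crosslinked DNA is ligated and probes then enrich one locus, and the tissue was the distal part of the limb buds at E11.5. The homozygous mutants were DelB, which lacks 76.39 to 78.06 Mb, DelBs, which lacks 76.39 to 77.86 Mb and so keeps the last 200 kb before the domain, and InvF, in which 74.83 to 75.90 Mb is turned round. Wild-type (WT) embryos were the controls, and every genotype had 1 library. In InvF the nearest breakpoint lies 2.16 Mb before the domain, so that the sequence beside the domain is that of WT.

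Contact domains are stretches of chromatin whose segments meet each other more often than they meet sequence beyond their borders, and borders can keep enhancers of one domain from genes of the next. Pax3, a paired-box transcription factor gene with roles in muscle progenitors and neural crest, gives the domain its name, and Epha4, a gene for an ephrin receptor, lies in the preceding domain. Deletions of the Epha4 domain that take the border with them are known to bring limb enhancers near Pax3 and to shorten digits, in mice as in human families. In the RefSeq table of GRCm38, 7 protein-coding genes stand between Pax3 and Scg2 in this order: Gm2102, Sgpp2, Farsb, Mogat1, Acsl3, Utp14b and Kcne4. They were not placed on the bins, because the maps are in mm9 and that table is not.

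The interior held 231179 counts in DelB, 229301 in DelBs, 199586 in InvF and 166706 in WT. Of the 5671 pairs, 97.4% had a count in the DelB map, 97.9% in the DelBs map, 97.2% in the InvF map and 96.5% in the WT map. The deletion labels held in the maps. Contacts of the domain with 76.39 to 77.86 Mb, which both deletions lack, were at 0.0250 of WT in DelB and 0.0162 in DelBs. In InvF they were at 0.971. Contacts with 77.86 to 78.06 Mb, which DelB alone lacks, were at 0.0241 in DelB, 1.05 in DelBs and 1.06 in InvF. These contacts do not check the inversion. Each library was divided by its total over pairs 20 kb to 2 Mb apart on the same side of the stretch 74.83 to 78.06 Mb, relative to WT, and the divisor was 1.42 for DelB, while that of DelBs was 1.49 and that of InvF 1.24. With 1 library per genotype there is no spread between embryos and no test, and the 95% intervals in parentheses cover counting error alone. InvF served as a further library with an intact neighbourhood. Its distance from WT is 1 instance of a difference between such libraries and gives no range, and InvF is itself a mutant.

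As a whole, the interior was close to its WT level in each mutant. Scaled contacts stood at 0.974 of WT in DelB (0.968 to 0.981), those of DelBs at 0.925 (0.919 to 0.931) and those of InvF at 0.965 (0.959 to 0.971). The ratio of DelB to InvF was 1.01 (1.004 to 1.02). DelB was nearer to WT than InvF was on this scale, but not in the balanced maps, where DelB stood at 0.912 and InvF at 0.991, nor when libraries were scaled to the right side (0.986 and 0.995) or to all counts. DelBs stood at 0.959 of InvF (0.953 to 0.965). The direction of the DelB value depended on the setting, since it was 1.29 when libraries were scaled to all their counts and 1.02 without the first 120 kb and the last 140 kb of the domain. Scaling to all counts also put DelBs at 1.22 and InvF at 1.02. On the untouched sides of the map, over the same distances, DelB stood at 0.992 of WT on the left and 0.986 on the right, DelBs at 1.01 and 0.960, and InvF at 1.01 and 0.969.

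A total near WT hid a local loss at the end of the domain that faces the deletion. The domain was divided at the borders near 78.18 Mb and 78.40 to 78.50 Mb into a first part of 120 kb, a second of 220 kb, a border stretch of 100 kb and a last part of 640 kb. Between the first and the second part there were 16708 counts in DelB, 22481 in DelBs, 20534 in InvF and 15846 in WT. After scaling, these contacts stood at 0.741 of WT in DelB (0.725 to 0.757), against 0.954 in DelBs (0.935 to 0.974) and 1.04 in InvF (1.02 to 1.07). Inside the first part itself the ratio to WT was 0.821 for DelB (0.799 to 0.843), whereas DelBs had 0.969 (0.944 to 0.993) and InvF 0.983 (0.957 to 1.01). DelB was therefore low at both places, and the other mutants were within 5% of WT. Set directly against DelBs, which keeps the 200 kb before the domain, DelB had 0.776 of the contacts between the first and second parts (0.761 to 0.792) and 0.847 of those inside the first part (0.827 to 0.868). Scaled to all counts, DelB was at 1.09 of WT inside the first part and at 0.981 between the parts.

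In scaled counts, the pairs within and between the second part and the border stretch did not share that loss. Contacts of the border stretch with itself stood at 0.982 of WT in DelB (0.945 to 1.02), 0.940 in DelBs and 0.934 in InvF. Its contacts with the last part stood at 0.982 in DelB (0.956 to 1.01), 0.906 in DelBs and 0.907 in InvF. In the balanced maps the border stretch with itself was at 0.841 in DelB. Contacts of the second part with itself stood at 1.05 of WT in DelB (1.03 to 1.07), against 1.02 in DelBs as well as in InvF. Contacts of the first part with the border stretch, which begins 220 kb farther on, stood at 1.07 of WT in DelB (1.03 to 1.12), against 1.04 in DelBs and 1.01 in InvF. The first part therefore met its near neighbours less often in DelB and the more distant border stretch no less often on this scale, although the ratio for the border stretch was 0.928 in the balanced maps. With the last part, farther still, the first part stood at 0.892 of WT in DelB (0.858 to 0.928), against 0.977 in DelBs and 0.915 in InvF. Between the second part and the border stretch the ratio was 1.12 in DelB, against 1.08 in DelBs and 1.06 in InvF, so that all 3 mutants stood above WT there on this scale. In the balanced maps DelB stood at 0.978 there, with DelBs at 1.04 and InvF at 1.07, and the second part with itself stood at 0.955 in DelB and 0.964 in DelBs.

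**Figure D1:**
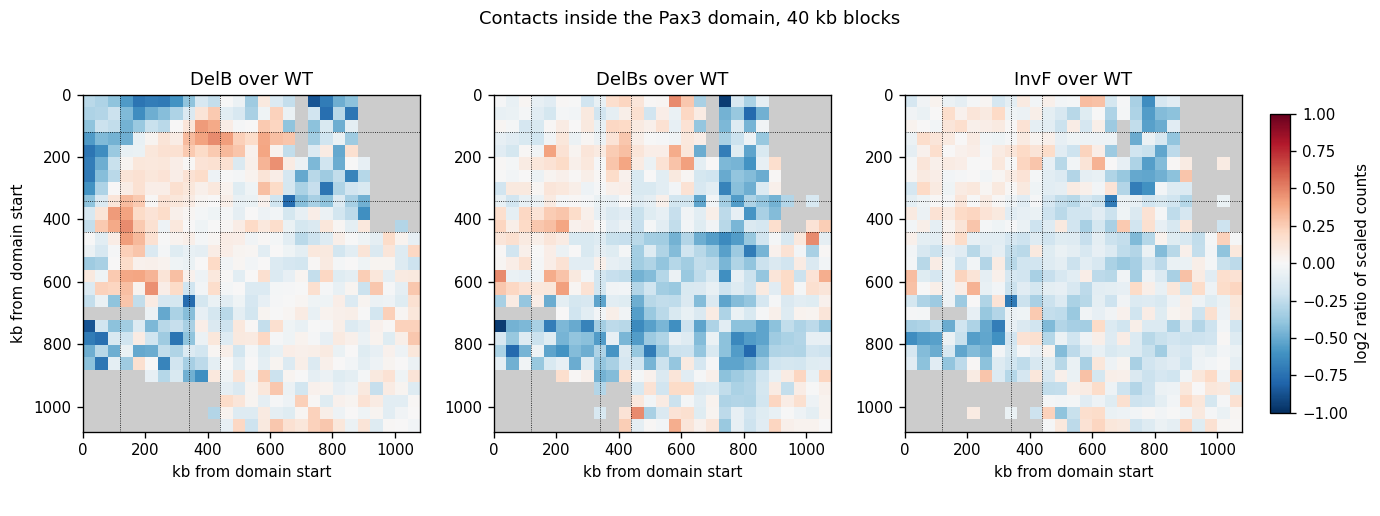
Log2 ratio of scaled counts to WT for pairs of 40 kb blocks inside the domain of DelB, DelBs and InvF. Both axes give the distance in kb from the domain start, dotted lines mark 120, 340 and 440 kb, and grey pairs had a mean scaled count under 50. DelB is low where the first 120 kb meets the first 340 kb, DelBs is low within the last 640 kb, and all 3 mutants are low where the first 340 kb meets the stretch from 720 to 880 kb.

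Pairs of 40 kb blocks were counted where the mean scaled count was at least 50, and called where the mutant was more than 25% above or more than 20% below WT. In DelB 50 of 325 block pairs were called (15.4%, against 6.63% of same-side block pairs outside the domain). Of these, 40 were lower (12.3%, background 1.08%) and 10 higher (3.08%, background 5.56%). Among the 40 lower pairs, 23 had a block in the first 120 kb, where 60 pairs were counted (38.3%), and 0 had both blocks in the last 680 kb, where 150 were counted. In DelBs 78 of 328 pairs were called (23.8%, background 10.1%), 71 of them lower (21.6%, background 2.28%) and 7 higher (2.13%, background 7.8%). Of its 71 lower pairs, 9 touched the first 120 kb, of 60 counted there (15%), and 39 had both blocks in the last 680 kb, of 151 counted there (25.8%, close to the 21.6% of the whole domain). In InvF 33 of 329 pairs were called (10.0%, background 5.59%), 32 of them lower (9.73%, background 2.2%) and 1 higher (0.304%, background 3.39%), and 8 of the 32 touched the first 120 kb, of 62 counted there (12.9%). The domain held a larger share of lower pairs than its surroundings in each mutant, InvF included.

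Past 1.5-fold, all called pairs were lower than WT. There were 13 in DelB (4%, background 0.572% in either direction and 0% for lower pairs), 11 in DelBs (3.35%, background 0.84% and 0.134%) and 4 in InvF (1.22%, background 0.237% and 0%). Higher pairs numbered 0 in each mutant, where the background for higher pairs was 0.572% in DelB, 0.706% in the DelBs comparison and 0.237% in that of InvF. The lowest pair of DelB, between the first 40 kb and the block at 78.78 to 78.82 Mb, stood at 0.549 of WT (0.394 to 0.763), and it was also the lowest of DelBs, at 0.518, with InvF at 0.797. The lowest pair of InvF, between 78.38 to 78.42 Mb and 78.70 to 78.74 Mb, stood at 0.612 (0.497 to 0.752), with DelB at 0.588 and DelBs at 0.694. The other lowest pairs by ratio lay between 0.583 and 0.649. The highest pair of DelB, between 78.18 to 78.22 Mb and 78.46 to 78.50 Mb, stood at 1.39 (1.23 to 1.56), with DelBs at 1.21 and InvF at 1.02. The pair between 78.26 to 78.30 Mb and 78.66 to 78.70 Mb was among the 3 highest of every mutant, and stood at 1.37 in DelB, with DelBs at 1.33 and InvF at 1.27.

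The loss in DelB was graded along the first part. The bin at the junction, the first 10 kb of the domain, kept 0.705 of its WT interior contacts in DelB (0.671 to 0.742), against 1.05 in DelBs (0.999 to 1.09) and 1.02 in InvF (0.969 to 1.07). Over the 12 bins of the first part the ratio in DelB lay between 0.705 and 0.889 with a median of 0.835, and all 12 were below 0.9. In the 22 bins of the second part 1 was below 0.9 and the median was 1.003, and in the 10 bins of the border stretch the median was 1.04. The median of the first part was 0.969 in DelBs and 1.01 in InvF. Past the first part the ratio in DelB was 0.881 in the next bin, 0.971 in the last bin before 78.22 Mb and 1.01 in the first bin after it. The low values of DelB thus gave way to values near WT between 78.18 and 78.22 Mb.

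New partners were gained across the same bins. All contacts of the first part with sequence before the deletion, 71.00 to 76.39 Mb, came to 55200 scaled counts in DelB, 22669 in DelBs, 9342 in InvF and 10104 in WT. They made up 62.3% of the contacts of the first part in DelB, 29.0% in DelBs, 12.2% in InvF and 13.2% in WT. The nearest stretch, 75.90 to 76.39 Mb, met the first part 12.6 times as often in DelB as in WT (12.1 to 13.1), 3.16 times as often in DelBs (3.02 to 3.29) and 1.03 times as often in InvF (0.975 to 1.08). The new partners brought more contacts than the deletion had removed. In DelB the first part gained 45096 scaled counts upstream, while its contacts with the deleted interval changed by -25913 and its interior contacts by -6111.

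**Figure D2:**
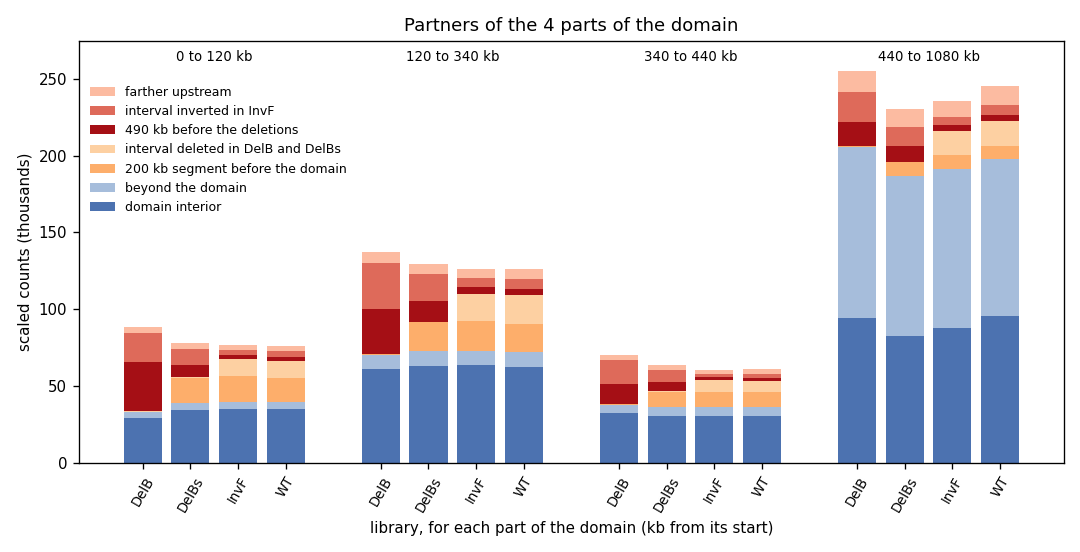
Stacked scaled counts of the 4 parts of the domain with each class of partner, in DelB, DelBs, InvF and WT from left to right, on an axis in units of 1000 counts. In the first 120 kb the red upstream classes make up 62.3% in DelB and 13.2% in WT, and the dark blue interior is 32.6% in DelB and 45.8% in WT.

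All contacts of the first part together, the upstream gain included, stood at 1.16 times WT in DelB, against 1.02 in DelBs and 1.003 in InvF. Because that gain enters the sum, it does not measure how well these bins were recovered, and the part of recovery in the DelB loss was not tested. Their contacts with the sequence beyond the domain, 79.14 to 81.00 Mb, were at 0.829 of WT in DelB (0.797 to 0.862), close to the fraction of 0.825 for the interior contacts of these bins (0.814 to 0.837). In DelBs these fractions were 1.02 and 0.972, and in InvF 0.988 and 1.01. In DelB these bins thus had fewer contacts inside the domain, summed over all its parts, and past its end, although their contacts with the border stretch were not lower on this scale.

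Gain and interior level were then set side by side. The upstream gain of a bin was expressed as a percentage of all its contacts in WT. In DelB its median was 51.1% in the first part, 29.99% in the second and 38.1% in the border stretch. The interior contacts of these parts stood at 0.825 of WT in the first part (0.814 to 0.837), at 0.977 in the second (0.967 to 0.987) and at 1.05 in the border stretch (1.04 to 1.07). The border stretch thus gained more than the second part and lost nothing on this scale. In DelBs the median gain was 14.8% in the first part, 13.9% in the second and 14.8% in the border stretch, and the interior stood at 0.972, 1.003 and 1.001. Across the 108 bins the interior ratio and the upstream gain had a Pearson r of -0.47 and a Spearman rho of -0.045 in DelB, and an r of 0.61 in DelBs. Neighbouring bins share pairs and a library, so these are descriptions. In InvF, where the median gain was -0.953%, r was 0.44 as well. Within DelB r was -0.88 over the 12 bins of the first part, -0.80 over the 22 bins of the second (rho -0.44), -0.15 over the 10 bins of the border stretch and 0.35 over the 64 bins of the last part. In DelBs r was 0.72 within the first part, 0.47 within the second, -0.28 within the border stretch and 0.33 within the last part. More gain thus went with less interior contact within the first and second parts of DelB, but not within its last part and not within the first and second parts of DelBs. Distance from the junction also changes along these bins, and its part was not tested.

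**Figure D3:**
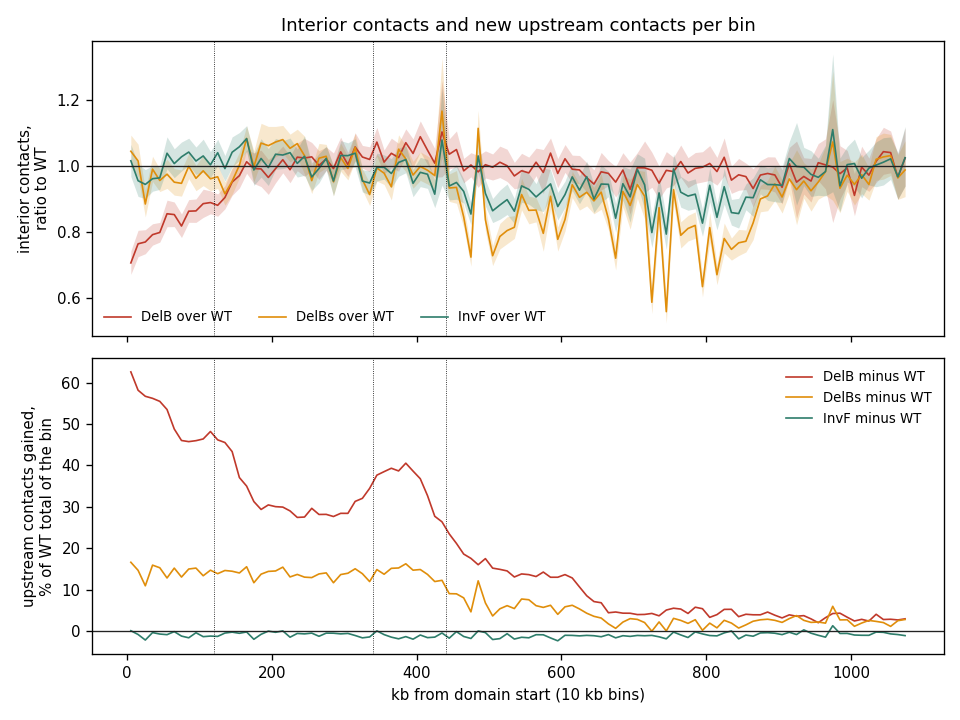
Interior contacts per 10 kb bin as a ratio to WT with 95% counting intervals (above), and upstream contacts gained as a percentage of the bin's WT total (below), for DelB, DelBs and InvF along the domain. In DelB the interior ratio is 0.705 at the junction, and the upstream gain is highest at the junction (62.6%) and has a further maximum near 400 kb, where the interior ratio is above 1.

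The internal borders were measured with windows that stay inside the domain, so that neither a junction nor a deleted bin enters. The border contrast is the log2 ratio of observed over expected contacts for pairs that cross a position to that for pairs within the 100 kb on either side. A negative value means that crossing pairs were lower than pairs within the sides. A border was placed where the contrast was lowest in a stretch. At 78.18 Mb it was -0.17 in DelB (-0.21 to -0.13), 0.026 in DelBs (-0.0070 to 0.060), 0.20 in InvF (0.17 to 0.24) and 0.11 in WT (0.07 to 0.15). DelB differed from WT by -0.28 (-0.34 to -0.23), DelBs by -0.084 and InvF by 0.094. At 75 positions from 78.30 Mb on, DelB differed from WT by -0.14 to 0.11, DelBs by -0.18 to 0.18 and InvF by -0.14 to 0.14, so that at 78.18 Mb DelB lay outside the range of its own differences farther on and the other mutants lay within theirs. These windows overlap, so the positions are not independent.

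The border itself did not lie at 78.18 Mb in any library. Between 78.16 and 78.30 Mb the contrast was lowest at 78.22 Mb in each of the 4 libraries, and its depth there was -0.50 in DelB, -0.48 in DelBs, -0.50 in InvF and -0.50 in WT. These depths differed by less than counting error. DelB differed on both slopes of the border. Before it, at 78.20 Mb, the contrast was -0.39 in DelB, against -0.20 in DelBs, -0.030 in InvF and -0.12 in WT. After it, at 78.25 Mb, the contrast was -0.019 in DelB, against -0.069 in DelBs, -0.18 in InvF and -0.18 in WT. DelB there differed from WT by 0.16 (0.10 to 0.22), DelBs by 0.11 (0.054 to 0.17) and InvF by -0.0018 (-0.061 to 0.057). At 78.24 Mb DelBs differed from WT by 0.18 (0.12 to 0.23), more than DelB did, at 0.14 (0.085 to 0.20). At 78.18 Mb the crossing pairs stood at 0.722 of WT in DelB (0.701 to 0.744), the pairs within the 100 kb to the left at 0.833 and those within the 100 kb to the right at 0.927. At 78.22 Mb the crossing pairs stood at 0.886, the pairs within the left side at 0.760 and those within the right side at 1.08, which left the contrast there close to that of WT.

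The border between 78.40 and 78.50 Mb was present on every allele. Its lowest contrast was -0.74 at 78.48 Mb in DelB, -0.69 at 78.49 Mb in DelBs, -0.76 at 78.48 Mb in InvF and -0.70 at 78.49 Mb in WT. The bin from 78.49 to 78.50 Mb held few interior counts: 583 in DelB, 644 in DelBs, 497 in InvF and 371 in WT. The bin before it held 5009, 5037, 3958 and 3488 in the same order. The part of this sparse bin in the depth and place of the minimum was not tested. DelB differed from WT by -0.041 (-0.11 to 0.027), DelBs by 0.013 (-0.058 to 0.083) and InvF by -0.064 (-0.14 to 0.0078), and all 3 counting intervals included 0. At one position for all, 78.48 Mb, DelB differed from WT by -0.079 (-0.15 to -0.011), DelBs by -0.023 (-0.091 to 0.046) and InvF by -0.10 (-0.17 to -0.031), while at 78.49 Mb the 3 intervals included 0. A further low point at 78.72 Mb, outside the borders looked for, had a contrast of -0.57 in DelB, -0.62 in DelBs, -0.59 in InvF and -0.59 in WT. Over the 89 positions of the domain the profile of each mutant correlated with that of WT, with r at 0.96 in DelB, at 0.97 in DelBs and at 0.98 in InvF, again with overlapping windows.

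**Figure D4:**
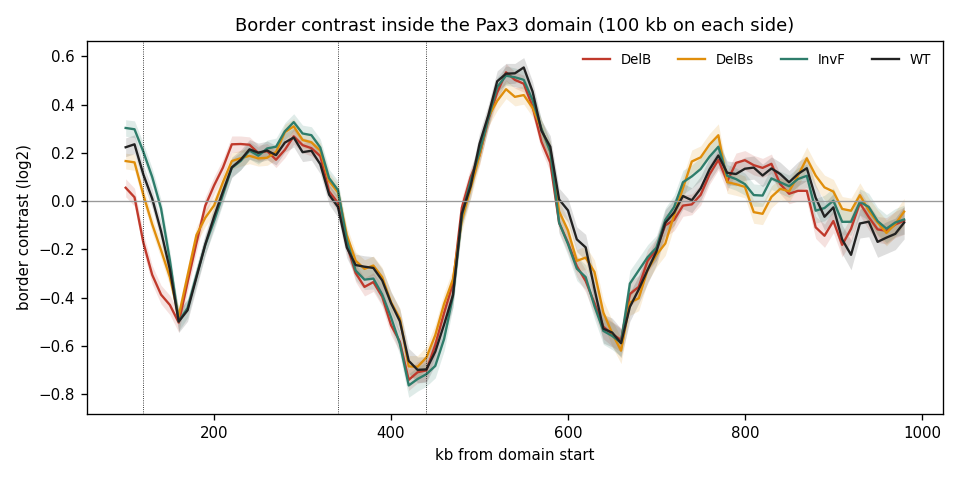
Border contrast (log2) along the domain with windows of 100 kb on each side, in DelB, DelBs, InvF and WT, with shaded 95% counting intervals and dotted lines at 120, 340 and 440 kb. The minima at 160, 420 to 430 and 660 kb coincide in the 4 libraries within 10 kb, the DelB curve lies below the others before the minimum at 160 kb, and DelB and DelBs lie above InvF and WT after it.

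The new upstream contacts of DelB were lower just after each of these low points of the contrast than just before it. In the 60 kb before 78.22 Mb contacts with 71.00 to 76.39 Mb were 4.88 times WT in DelB (4.74 to 5.03), and in the 60 kb after it 3.85 times (3.72 to 3.99). Around 78.49 Mb they were 4.06 times WT before (3.94 to 4.19) and 2.97 times after (2.86 to 3.09). Around 78.72 Mb they were 2.38 times WT before (2.28 to 2.48) and 1.75 times after (1.65 to 1.84). In DelBs the ratio was 2.24 before and 2.31 after 78.22 Mb, 2.23 before and 1.83 after 78.49 Mb, and 1.66 before and 1.33 after 78.72 Mb. The DelBs ratio thus had no drop at the first of these borders, where its counting intervals overlapped, and a drop at each of the others. On other measures DelBs was lower after 78.22 Mb as well. Its gain over WT was 6073 scaled counts before and 5054 after, and its balanced ratio 2.22 before and 2.14 after. InvF stood between 0.804 and 0.957 in all 6 windows. No window was placed away from a border, and the gain also declines with distance from the junction. These drops therefore cannot be told apart from that decline, and the part of distance in them was not tested.

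The strongest contacts at a distance linked the early part of the domain to one stretch. Of the 5 pairs of 40 kb blocks at least 100 kb apart with the highest observed over expected value over all 4 libraries, 4 had a block in 78.38 to 78.46 Mb, which spans the start of the border stretch. Between 78.18 to 78.22 Mb and 78.38 to 78.42 Mb there were 2.94 times the expected contacts in DelB, 2.26 in DelBs, 2.31 in InvF and 2.33 in WT. Relative to WT this contact was at 1.246 in DelB (1.16 to 1.33), with DelBs at 0.958 (0.893 to 1.03) and InvF at 0.992 (0.922 to 1.07). With 78.42 to 78.46 Mb the same block was at 1.32 of WT in DelB (1.23 to 1.43), with DelBs at 1.102 and InvF at 1.06.

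The block nearest the junction, 78.06 to 78.10 Mb, went the other way. It met 78.38 to 78.42 Mb at 1.64 times the expected level in DelB, 2.06 in DelBs, 2.04 in InvF and 2.19 in WT, which put DelB at 0.755 of WT (0.686 to 0.831). The next block, 78.10 to 78.14 Mb, met it at 0.903 of WT in DelB, with DelBs at 0.875 and InvF at 0.972. The remaining strong pair, between 78.50 to 78.54 Mb and 78.66 to 78.70 Mb, was at 0.985 of WT in DelB, with DelBs at 0.816 and InvF at 0.933.

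Contacts with 78.38 to 78.46 Mb followed position in DelB. The first 40 kb of the domain stood at 0.815 of WT in DelB (0.759 to 0.875) and the next 40 kb at 0.987. The block before 78.18 Mb stood at 1.196, and the fourth block, which ends at the border at 78.22 Mb, at 1.28 (1.22 to 1.35). Past that border the ratios were 1.18, 1.04, 1.11 and 1.07. In DelBs the 8 blocks lay between 0.903 and 1.11 and in InvF between 0.966 and 1.11, and at the fourth block both stood at 1.02. Most of the rise in DelB was absent from the balanced maps, which bring every bin to an equal sum. There the 8 blocks stood at 0.697, 0.874, 1.04, 1.11, 1.01, 0.927, 0.983 and 0.939, so that the order along the first 4 blocks held while the last 3 fell below WT. The stretch was taken from the strongest contacts after they had been seen.

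**Figure D5:**
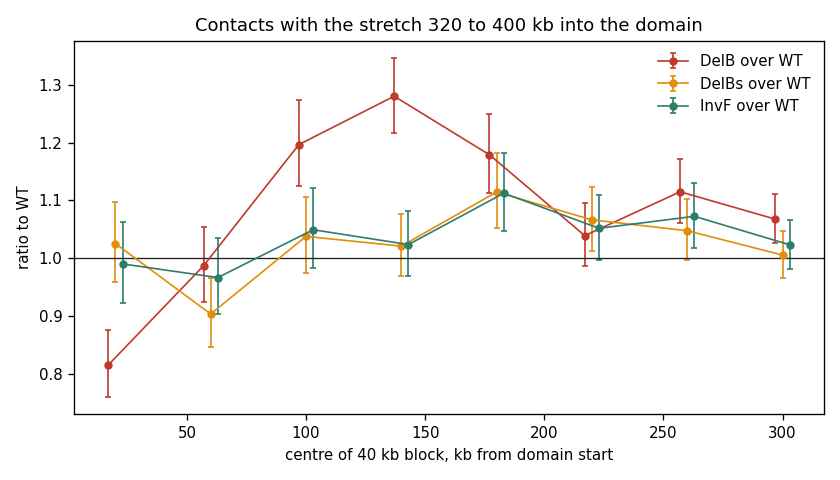
Ratio to WT of contacts between 40 kb blocks and the stretch 320 to 400 kb into the domain, by the centre of the block in kb from the domain start, with 95% counting intervals, for DelB, DelBs and InvF. DelB runs between 0.815 at the first block and 1.28 at the fourth, and DelBs and InvF stay between 0.903 and 1.11.

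The last part, 78.50 to 79.14 Mb, was lower in DelBs and close to WT in DelB. Its internal contacts stood at 0.992 of WT in DelB (0.982 to 1.001), while DelBs had 0.842 (0.834 to 0.8505) and InvF 0.928 (0.919 to 0.938). The low ratios of DelBs were strongest in single bins, with 0.586 for the bin that starts at 78.78 Mb and 0.557 for the one at 78.80 Mb. In InvF these bins stood at 0.798 and 0.793, and in DelB at 0.988 and 0.987. Their contacts with the sequence beyond the domain were low as well in DelBs, at 0.648 and 0.669. Across the 64 bins of the last part the interior ratio and the ratio beyond the domain had a Pearson r of 0.92 in DelBs. It was 0.66 in InvF and -0.33 in DelB. In every library both ratios share the recovery of the bin. In the balanced maps, which even out recovery, the internal contacts of the last part were at 0.956 of WT in DelB, with DelBs at 0.943 and InvF at 0.986. How far recovery of single bins made the raw DelBs value was not tested.

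Pairs 400 to 800 kb apart inside the domain were lower than in WT in all 3 mutants, which share the WT library. The interior stood there at 0.921 of WT in DelB, with DelBs at 0.945 and InvF at 0.922, while outside the domain pairs at these distances stood at 1.05, 1.06 and 1.03 in the same order. Beyond 800 kb, with 1026 counts in DelB, 1323 in DelBs, 1010 in InvF and 958 in WT, the mutants were less alike, with DelB at 0.753 of WT (0.688 to 0.823), DelBs at 0.929 (0.854 to 1.01) and InvF at 0.8498 (0.777 to 0.929). The first 340 kb met 78.78 to 78.94 Mb with 3133 counts in DelB, 3159 in DelBs, 2718 in InvF and 2768 in WT. Scaled, this was 0.795 of WT in DelB (0.755 to 0.837), with DelBs at 0.768 (0.729 to 0.808) and InvF at 0.791 (0.7504 to 0.835). Observed over expected was 0.323 in DelB, 0.312 in DelBs, 0.331 in InvF and 0.427 in WT. Against InvF, DelB stood at 1.005 (0.954 to 1.06) and DelBs at 0.970 (0.921 to 1.02), so that in scaled counts WT stood apart there. In the balanced maps the ratios to WT were 0.743 in DelB, 0.853 in DelBs and 0.840 in InvF, so that DelB was lower than the other mutants. The stretch includes the bins that start at 78.78 and 78.80 Mb, which were low in DelBs and InvF, and the part of recovery was not tested. Between the first and second parts DelB was lower in scaled counts against InvF too, at 0.709 (0.695 to 0.724).

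The difference maps of the authors leave the domain almost blank. Of 4186 interior pairs up to 78.99 Mb, the authors' deposited table for DelB holds 1 value above 0 and 2 below 0, the authors' deposited table for DelBs 0 above and 2 below, and the authors' deposited table for InvF 13 above and 2 below. Both values below 0 in the authors' deposited table for DelB have a bin in the first 120 kb. For single pairs of bins, whose median was 17 counts in DelB, 16 in DelBs, 13 in InvF and 11 in WT, the authors' deposited table for DelB thus marked few of the contacts whose sums were lower.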

How the data were processed

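Maps of DelB, DelBs, InvF and WT distal limb buds were used, with 1 library each. Reads were mapped with Bowtie2 2.2.6 to build mm9, per the submitters' processing notes. The deposited raw maps hold the authors' counts of ligated fragments for each pair of bins, with a mapping quality of 30 in the file names. The deposited balanced maps hold a signal that the authors obtained by KR balancing, which equalises bin sums, so that a gain upstream lowers interior values by construction. The deposited difference maps hold a score, and how the authors made it is not stated here. The treatment of PCR duplicates is not stated either, so intervals treat counts as independent.

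Positions in Mb are bin edges: 78.06 to 79.14 Mb is chr1:78060001-79140000, DelB lacks chr1:76390001-78060000, DelBs lacks chr1:76390001-77860000, and InvF turns chr1:74830001-75900000. Ratios of scaled counts had exact conditional binomial intervals, and differences of contrasts Wald intervals. The expected level was the same library's mean count at each distance over same-side pairs. In the balanced maps 1 bin without values was left out. Named regions were the parts of the domain, their partners, the 3 highest and 3 lowest block pairs per mutant and the 5 strongest. The members and borders were chosen with earlier results of these data known, and the 60 kb windows, the stretch of the strongest contacts, the single low bins and the long stretch after values were seen. The tools were matplotlib 3.10.9, scipy 1.17.1 and numpy 2.4.6 under Python 3.11.15, and the functions were tested on simulated data.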

Additional observations from a re-analysis of the deposited data

How the results depend on the processing

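No paired analysis was possible because every genotype had 1 library. Scaling to all counts moved the interior ratios of all 3 mutants furthest among the alternatives, and by construction it raises DelB and DelBs, whose totals lack the deleted pairs. It put the interior above WT, at 1.29 in DelB, 1.22 in DelBs and 1.02 in InvF. It also put the inside of the first part at 1.09 in DelB and 1.27 in DelBs, the first with the second part at 1.254 in DelBs, and the inside of the last part at 1.11 in DelBs. The first with the second part in DelB was then 0.981.

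For the interior of DelB, observed over expected gave 0.992, balanced maps 0.912, scaling to the right side 0.986, the trimmed domain 1.02 and InvF in place of WT 1.01. For DelBs the values were 0.943, 0.952, 0.960, 0.905 and 0.959 in that order, with 0.919 when scaled outside the domain, 0.907 when scaled to the left side and 0.934 at distances of 50 kb or more. For InvF balanced maps gave 0.991, the right side 0.995, the left side 0.952 and the trimmed domain 0.949. The first part in itself was 1.005 in DelBs when scaled to the right side and 1.01 as observed over expected. With balanced maps its contacts with the border stretch were 0.928 in DelB and 0.987 in DelBs, the second part with itself 0.955 and 0.964, and the second part with the border stretch 0.978 in DelB. For the first with the second part in DelB, the settings other than all counts gave 0.660 to 0.759.

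With 60 kb windows the border contrast of DelBs differed from WT by -0.019 at 78.18 Mb and by -0.087 at the later border. Block pairs past the fold numbered 50 in DelB, 78 in DelBs and 33 in InvF. Past 1.5-fold there were 13, 11 and 4. With all counts there were 209 in DelB and 151 in DelBs. With balanced maps there were 86 in DelB and 51 in DelBs. A minimum of 20 counts gave 80 in DelB, and one of 100 counts gave 28, 47 and 13. The cause of these shifts, where not given above, was not tested. The other 38 values of these main comparisons stayed within their counting interval or within 1.5 times the count. The alternatives with InvF as denominator, with the right side, with WT at the position of the mutant's minimum and for the parts of the domain were chosen after seeing the data.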
